A study of Homo sapiens with 8 samples.

Results

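The retinoid metabolism and response genes are 10 genes that make, bind or answer to retinoic acid: ALDH1A1, ALDH1A3, DHRS3, DHRS9, RDH10, CRABP1, CRABP2, RARB, RARRES1 and RARRES3. They were taken as the non-control probes whose gene name in the array files is one of these symbols, which gave 14 probes of the 50599 on the array and 10 of 36337 gene names. The genes were picked by name from genes whose changes on these arrays were already known, so their values, errors and calls below are a description, no p-value is given for them, and nothing is supported with them. The RNA came from DLD1 cells, an established human line of colorectal adenocarcinoma cells, which the study places in the CpG island methylator phenotype (CIMP) class. It was measured on 8 single-colour Agilent arrays in 4 groups of 2. Cells of the siCONT mock group received a control siRNA for 48 h and then ethanol for 24 h. Cells of the siCONT TSA group received the control siRNA and then 300 nM TSA (trichostatin A, which inhibits histone deacetylases) in place of ethanol. The UHRF1 depletion mock and UHRF1 depletion TSA groups received siRNAs against UHRF1, the protein that directs maintenance DNA methylation to replicated DNA, 1 array with siUHRF1-1 and 1 with siUHRF1-2. All 4 groups were thus transfected cells of 1 line, and every siCONT array carries the control siRNA rather than no siRNA.

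Retinoids are derived from vitamin A. Retinol is oxidised reversibly to retinaldehyde by retinol dehydrogenases such as RDH10 and DHRS9, and DHRS3 runs the step backwards, from retinaldehyde to retinol. The aldehyde dehydrogenases ALDH1A1 and ALDH1A3 then oxidise retinaldehyde irreversibly to retinoic acid. In the cell, CRABP1 and CRABP2 bind retinoic acid, and CRABP2 hands it to the nuclear retinoic acid receptors, which pair with RXR receptors on direct repeats in DNA. RARB is such a receptor and also a target of the pathway, and RARRES1 and RARRES3 were named for their induction by a synthetic retinoid. In the intestine retinoic acid takes part in epithelial differentiation, and ALDH1A1 is widely used as a marker of stem-like cells in the colon. CRABP1 and RARB are known as genes whose promoters are often methylated in colorectal cancer.

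A level below is the log2 of a probe's intensity divided by the 75th percentile of its array, and is 0 for a probe at that percentile. The share of probes well above background ranged over the arrays from 43.3% to 48.0%. The UHRF1 level (its brightest probe) was 1.98 and 2.01 on the siCONT mock arrays, 0.34 and −0.02 in UHRF1 depletion mock, 1.04 and 1.01 in siCONT TSA, and −1.55 and −2.14 in UHRF1 depletion TSA. UHRF1 was thus below its siCONT level on each depleted array, by 1.83 on the log2 scale under mock (SE 0.22, limma adjusted p 0.012) and by 2.87 under TSA (SE 0.22, adjusted p 0.00234). In a fit that averaged each agent's siCONT arrays into 1 sample (the merged-siCONT fit) these adjusted p were 0.252 and 0.0535, and the call under mock was also lost without either siCONT mock array (−1.85 and −1.82). The siCONT mock arrays differed by 1.16 and the siCONT TSA arrays by 1.08 times the noise between repeated spots, against 12.5 and 10.3 times for the UHRF1 siRNAs. Each siCONT pair is therefore treated as 1 sample wherever a mean with its n is given.

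All 9 colon epithelial markers examined were well above background on every array. Their summed intensity, in units of the 75th percentile, was 985 to 1002 in siCONT mock and 768 to 848 in UHRF1 depletion mock. It was 1072 to 1078 in siCONT TSA and 854 to 968 in UHRF1 depletion TSA. Single markers of this list moved with the groups, and LGALS4, KRT20, VIL1 and GPA33 are given as examples. The other markers of the list are not given singly, so the examples do not rank the 9 markers. LGALS4 was at 1.87 and 2.05 in siCONT mock, 5.04 and 5.09 in UHRF1 depletion mock, −1.63 and −1.59 in siCONT TSA, and 0.08 and −0.07 in UHRF1 depletion TSA. KRT20 went from −1.89 and −1.58 in siCONT mock to 0.79 and 1.61 in UHRF1 depletion mock, and VIL1 from 2.60 on both arrays to 3.72 and 4.33. With TSA, GPA33 went from 2.93 and 3.02 in siCONT mock to −2.28 and −2.75 in siCONT TSA. LGALS4, KRT20 and VIL1 were thus higher after UHRF1 depletion under mock, while the summed intensity of the 9 markers was lower. PTPRC and CD3E (leukocyte), COL1A2 and COL3A1 (fibroblast) and PECAM1 (endothelial) were above background on no array by their brightest probes. Among the remaining markers of these cell types, CD14 was above background on all arrays and COL1A1 on the 4 TSA arrays. The summed intensity of the 4 leukocyte markers was 0.508 to 0.562 in siCONT mock, 0.781 to 1.78 in UHRF1 depletion mock, 0.385 to 0.429 in siCONT TSA and 0.888 to 1.45 in UHRF1 depletion TSA. For the 4 fibroblast markers it was 0.0841 to 0.114, 0.0661 to 0.116, 0.336 to 0.376 and 0.575 to 1.05 in the same order. For the 3 endothelial markers it was 0.147 to 0.175, 0.373 to 0.515, 0.945 to 0.964 and 1.59 to 1.71. Their part in the retinoid results was not tested.

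Because the series concerns DNA methylation and histone acetylation, CpG sites are shown in the promoters of both retinaldehyde dehydrogenases, which share a reaction but not a pattern, and of DHRS3, the member that fell furthest with TSA. A RefSeq table of promoters (GRCh38.p14, 250 bases before to 50 after a start) held 8 of the 10 genes, and the median promoter of the 35116 in it held 14 CpG. The ALDH1A1 promoter (chr9:72953004-72953303, minus strand) held 7 CpG, fewer than the median. The ALDH1A3 promoter (chr15:100879581-100879880, plus strand) held 46, and 97.1% of all promoters held fewer. The most CpG-rich of the 3 DHRS3 starts (chr1:12618161-12618460, minus strand) held 31, and the others held 13 and 5. CpG sites are in capitals, and each sequence runs 5′ to 3′ on the strand of its gene.
ALDH1A1: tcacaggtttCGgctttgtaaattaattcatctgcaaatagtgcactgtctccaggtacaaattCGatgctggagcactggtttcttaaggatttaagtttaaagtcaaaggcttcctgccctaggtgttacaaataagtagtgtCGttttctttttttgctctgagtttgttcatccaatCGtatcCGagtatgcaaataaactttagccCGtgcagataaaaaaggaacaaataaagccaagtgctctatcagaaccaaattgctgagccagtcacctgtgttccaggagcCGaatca
ALDH1A3: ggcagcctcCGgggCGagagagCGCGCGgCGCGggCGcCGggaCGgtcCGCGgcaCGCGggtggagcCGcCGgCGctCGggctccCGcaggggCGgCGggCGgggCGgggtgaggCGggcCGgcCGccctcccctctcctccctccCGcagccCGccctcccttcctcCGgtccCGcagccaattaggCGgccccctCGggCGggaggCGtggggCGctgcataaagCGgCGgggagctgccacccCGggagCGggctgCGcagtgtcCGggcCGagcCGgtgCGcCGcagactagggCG
DHRS3: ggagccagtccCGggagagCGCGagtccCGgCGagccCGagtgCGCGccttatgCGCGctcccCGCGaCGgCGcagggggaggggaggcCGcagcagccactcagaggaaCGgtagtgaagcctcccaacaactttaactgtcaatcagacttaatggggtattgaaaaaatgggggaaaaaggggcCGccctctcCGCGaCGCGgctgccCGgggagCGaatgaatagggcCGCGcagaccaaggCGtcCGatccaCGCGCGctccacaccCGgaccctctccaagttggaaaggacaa
The aldehyde dehydrogenases thus differed in the CpG content of their promoters. Whether CpG content bears on the levels of these genes was not tested, and their methylation was not examined here. The 4 DHRS9 starts held 1, 4, 2 and 0 CpG, and CRABP1, CRABP2 and RARRES1 held 25, 20 and 28. The RARB starts held 7, 33, 1 and 2.

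The RARB promoter is shown for its direct repeat, because RARB is the member that is itself a receptor for retinoic acid. The core motifs searched, on both strands, were the consensus AGGTCA with its variants AGTTCA, then GGGTCA, and lastly GGTTCA, which do not overlap within a counted repeat. A repeat was counted where a core motif was followed by another on the same strand after 1, 2 or 5 bases. In the RARB promoter at chr3:25428013-25428312 (GRCh38.p14, plus strand) a repeat with a spacing of 5 began at position −53 relative to the start, and its core motifs are in capitals.
RARB: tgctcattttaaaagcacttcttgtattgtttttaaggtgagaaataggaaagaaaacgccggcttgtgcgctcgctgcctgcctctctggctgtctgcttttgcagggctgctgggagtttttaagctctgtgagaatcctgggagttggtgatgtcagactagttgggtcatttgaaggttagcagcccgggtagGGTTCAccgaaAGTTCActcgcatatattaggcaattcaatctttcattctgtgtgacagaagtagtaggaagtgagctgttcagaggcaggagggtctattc
Of all promoters in the table, 0.0883% held a repeat with that spacing and 0.259% held one with any of the 3 spacings. At least 1 core motif was found in 38.6% of promoters. None of the other promoters of the 8 genes held a repeat of these letters.

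The question of the series was how UHRF1 loss and histone deacetylase inhibition, alone and together, change expression, which gives 6 comparisons. Of the 10 genes, 8 could be tested in each comparison, the condition being that both arrays of a compared group showed the probe well above background. CRABP1 and RARB did not meet this in any comparison. A gene was called if its brightest probe had a Benjamini-Hochberg adjusted p under 0.05 over all probes tested and changed at least 2-fold. By this rule, UHRF1 depletion under mock called 2 of the 8 genes, both higher, beside 4.12% of all probes tested. TSA in siCONT cells called 2 higher and 1 lower, beside 18.6%. Both treatments together against siCONT mock called 3 higher and 1 lower, beside 25.6%. UHRF1 depletion under TSA called 0, beside 8.27%, and 4 of the 8 had an unadjusted limma p under 0.05. The methods' t-test also called 0 of the 8, where unadjusted it called 1864 of 23844 probes and after adjustment 0. All of the 8 except ALDH1A1 changed less than 2-fold in this comparison, so neither rule could call them at any p. ALDH1A3 (1.97-fold higher) and DHRS3 (1.87-fold lower) came closest to the limit. TSA in UHRF1-depleted cells called 3 higher and 2 lower, beside 20.7%, and the difference between the UHRF1 effect under TSA and under mock (the interaction) called 1, beside 4.89%. Since these contrasts were known when the genes were picked, nothing is read from their share. The first 3 comparisons share the siCONT mock arrays, so their values stand side by side and are not independent.

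In the merged-siCONT fit with limma, the corresponding counts were 0, 2, 3, 0, 4 and 0 genes, beside 5, 362, 3660, 165, 4211 and 0 of all probes, so its 0s for UHRF1 depletion under mock and for the interaction say almost nothing about these genes. In the 8-array fit 5, 4, 5, 4, 7 and 3 genes had an unadjusted p under 0.05. The split under TSA in depleted cells depended on the scaling, with 2 higher and 5 lower after median scaling (2034 and 4721 of all probes), under which the probes tested in that comparison had a median of −0.43. The median log2 difference of the 8 genes was 0.85 for UHRF1 depletion under mock, 0.25 for TSA, 0.93 for both, −0.87 for TSA in depleted cells and 0.46 for depletion in TSA-treated cells. The medians over all probes tested were −0.10, −0.11, −0.14, −0.04 and 0.00. Mock arrays lay in 1 row of the slide and TSA arrays in the other, so TSA and slide row cannot be told apart in any TSA comparison. The siCONT arrays lay in columns 1 and 2 and the depleted arrays in columns 3 and 4, so UHRF1 depletion and slide column cannot be told apart either. Each UHRF1 siRNA had 1 array per agent, so within an agent siRNA and array cannot be told apart. In bulk RNA, fewer cells of a type and less RNA per cell are likewise indistinguishable.

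**Figure D1:**
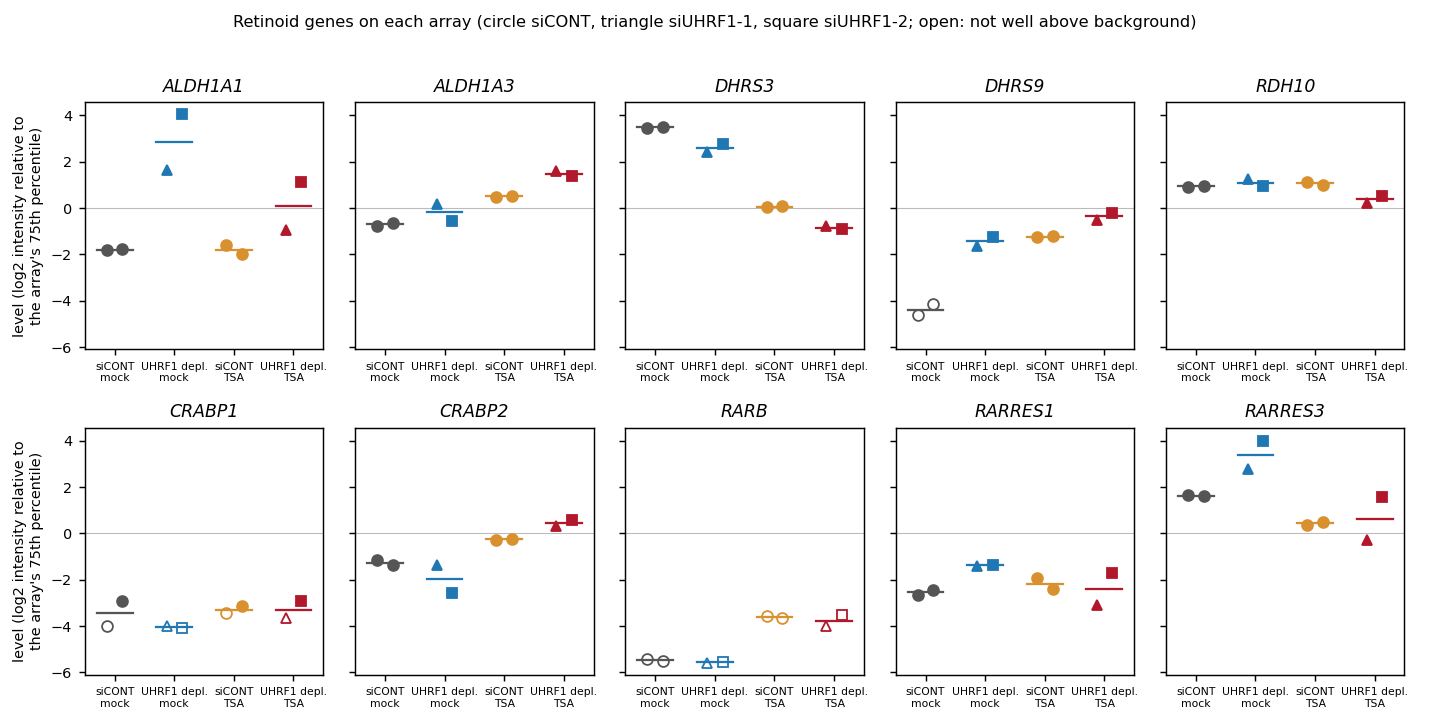
Level of each retinoid gene (brightest probe) on the 8 arrays, as log2 intensity over the array's 75th percentile, with group means as lines and open symbols where the spot was not well above background. ALDH1A1 is highest on the UHRF1 depletion mock arrays (1.63 and 4.08), DHRS3 falls from a mean of 3.48 in siCONT mock to −0.80 and −0.89 in UHRF1 depletion TSA, and CRABP1 and RARB stay near background.

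Among the retinaldehyde dehydrogenases, ALDH1A1 was highest after UHRF1 depletion alone. The level of its brighter probe (A_23_P83098, chromosome 9, 75516136 to 75516195, hg19, minus strand) was −1.80 and −1.79 in siCONT mock, 1.63 with siUHRF1-1 and 4.08 with siUHRF1-2 under mock, −1.61 and −1.97 in siCONT TSA, and −0.94 and 1.10 with siUHRF1-1 and siUHRF1-2 under TSA. All 4 depleted arrays were above all 4 siCONT arrays, while the siCONT arrays with and without TSA overlapped. The mean was −1.79 in siCONT mock and 2.85 ± 1.73 (SD, n = 2 siRNAs) in UHRF1 depletion mock, a log2 difference of 4.64 (SE 0.92), or 25.0-fold, which was called. In TSA-treated cells the mean was −1.79 with siCONT. It was 0.08 ± 1.44 (SD, n = 2 siRNAs) with the UHRF1 siRNAs, a difference of 1.87 (SE 0.92) that was not called. TSA alone changed ALDH1A1 by 0.00 (SE 0.92), both treatments together by 1.88, and TSA in depleted cells by −2.77. The latter 2 were not called, and nor was the interaction of −2.77 (SE 1.30).

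The siRNAs differed more for ALDH1A1 than for the other tested members, with differences from siCONT of 3.42 for siUHRF1-1 and 5.87 for siUHRF1-2 under mock, and 0.85 and 2.89 under TSA. The call under mock was lost in the merged-siCONT fit, with no filter on dim probes, without siUHRF1-2 (3.42), and without any one of the 4 siCONT arrays (4.64 to 4.65). The decrease with TSA in depleted cells (−2.56 with siUHRF1-1 and −2.97 with siUHRF1-2) was called in 6 of 17 alternatives. These were the replicate block (−2.77), median scaling (−3.16), normexp background correction (−2.33), probes above background on all arrays (−2.77), and leaving out siUHRF1-1 under mock (−3.99) or siUHRF1-2 under TSA (−3.79). The dimmer ALDH1A1 probe (A_33_P3379644, chromosome 9, 75540401 to 75540460, hg19) was above background on neither siCONT mock array and on both depleted mock arrays, at −1.33 and 0.79. Its siCONT mock levels of −3.28 and −3.33 lay above the lowest signal that passed as well above background on those arrays, so the measured difference is given, 3.03 (SE 0.86), and not called. It was 1.97 with siUHRF1-1, 4.09 with siUHRF1-2 and 1.15 with normexp, each in the direction of the brighter probe.

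ALDH1A3, which catalyses the same oxidation, followed another pattern and was highest with both treatments. Its level (A_23_P205959, chromosome 15, 101456503 to 101456562, hg19, plus strand) was −0.76 and −0.66 in siCONT mock, 0.17 and −0.55 with siUHRF1-1 and siUHRF1-2 under mock, 0.48 and 0.53 in siCONT TSA, and 1.61 and 1.36 in UHRF1 depletion TSA. The 4 groups did not overlap and rose in that order. Both treatments together gave a difference of 2.19 (SE 0.24) and TSA in depleted cells one of 1.68. Both were called, also in the merged-siCONT fit. TSA alone gave 1.22 (SE 0.24), a call lost in that fit, without any one of the 4 siCONT arrays (1.17 to 1.26) and with another background correction (normexp, 0.84). UHRF1 depletion gave 0.52 under mock and 0.98 under TSA, neither called, and the interaction was 0.46 (SE 0.34). Thus in siCONT cells TSA changed ALDH1A1 by 0.00 while ALDH1A3 was 2.33-fold higher. The SE of 0.92 for ALDH1A1 is shared by all groups and includes the spread between the UHRF1 siRNAs. Its siCONT arrays differed by 0.01 under mock and 0.35 under TSA. The difference between the genes was not tested.

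DHRS3, the retinaldehyde reductase that retinoic acid itself is known to induce, fell furthest of the tested members under TSA. Its level (A_23_P33759, chromosome 1, 12628110 to 12628169, hg19, minus strand) was 3.46 and 3.50 in siCONT mock, 2.44 and 2.76 in UHRF1 depletion mock, 0.05 and 0.08 in siCONT TSA, and −0.80 and −0.89 in UHRF1 depletion TSA. The groups did not overlap, and within each of them the arrays lay close together (SD 0.23 and 0.06 between the siRNAs under mock and TSA). TSA alone gave a difference of −3.42 (SE 0.14), TSA in depleted cells −3.44, or 10.9-fold lower, and both treatments together −4.32, or 20.0-fold lower. These 3 differences were called in each of the 17 alternatives run for them. UHRF1 depletion gave −0.88 under mock and −0.90 under TSA (SE 0.14), neither reaching 2-fold. The first of these reached it and was called without siUHRF1-2 under mock (−1.05), and the second with median scaling (−1.26). The interaction was −0.02 (SE 0.20), so the log2 differences for UHRF1 depletion and for TSA added up within the error.

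DHRS9, which oxidises retinol and some steroids, was not above background in siCONT mock and was well above it in the other 3 groups. Its level (A_23_P56559, chromosome 2, 169952375 to 169952434, hg19, plus strand) was −4.64 and −4.16 in siCONT mock, −1.62 and −1.26 in UHRF1 depletion mock, −1.26 and −1.20 in siCONT TSA, and −0.52 and −0.20 in UHRF1 depletion TSA. For a probe below background in a group, a fold is a bound, set against the lowest signal well above background on those arrays, or the probe's own where that is higher. Against siCONT mock DHRS9 was at least 3.88-fold higher after UHRF1 depletion, at least 4.49-fold higher with TSA and at least 8.21-fold higher with both, and each of these was called (fitted differences 2.96, 3.17 and 4.04, SE 0.22). The call for UHRF1 depletion was lost in the merged-siCONT fit and with normexp background correction (0.56). That for TSA was lost with normexp (0.68). Either treatment alone gave levels between −1.62 and −1.20, and both together gave higher ones on each array. TSA in depleted cells added 1.08 (SE 0.22), which was called, and UHRF1 depletion under TSA added 0.87, which was not. The call of 1.08 was lost with median scaling (0.69), with normexp (0.62), and without siUHRF1-1 under mock (0.90) or siUHRF1-2 under TSA (0.92).

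The interaction of DHRS9 was −2.08 (SE 0.31) and was called, that is, the second treatment added less than the first. It rests on siCONT mock signals that were not above background, and with normexp background correction it was −0.06 and the differences from siCONT mock were 0.56 (UHRF1 depletion) and 0.68 (TSA). The interaction call was lost with normexp, in the merged-siCONT fit and with no filter on dim probes. It was also lost without any one of the 4 siCONT arrays (−2.32 to −1.85) and without siUHRF1-1 under TSA (−1.93).

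RDH10, the retinol dehydrogenase needed for most retinoic acid synthesis in the embryo, varied least among the tested members. Its level (A_32_P25050) was 0.92 and 0.95 in siCONT mock, 1.27 and 0.93 in UHRF1 depletion mock, 1.12 and 1.01 in siCONT TSA, and 0.21 and 0.54 in UHRF1 depletion TSA. Only the arrays with both treatments stood below the rest. Differences lay between −0.73 (TSA in depleted cells) and 0.16 (UHRF1 depletion under mock), with an SE of 0.17, and none was called. With median scaling, UHRF1 depletion under TSA (−1.05) and TSA in depleted cells (−1.12) were called.

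**Figure D2:**
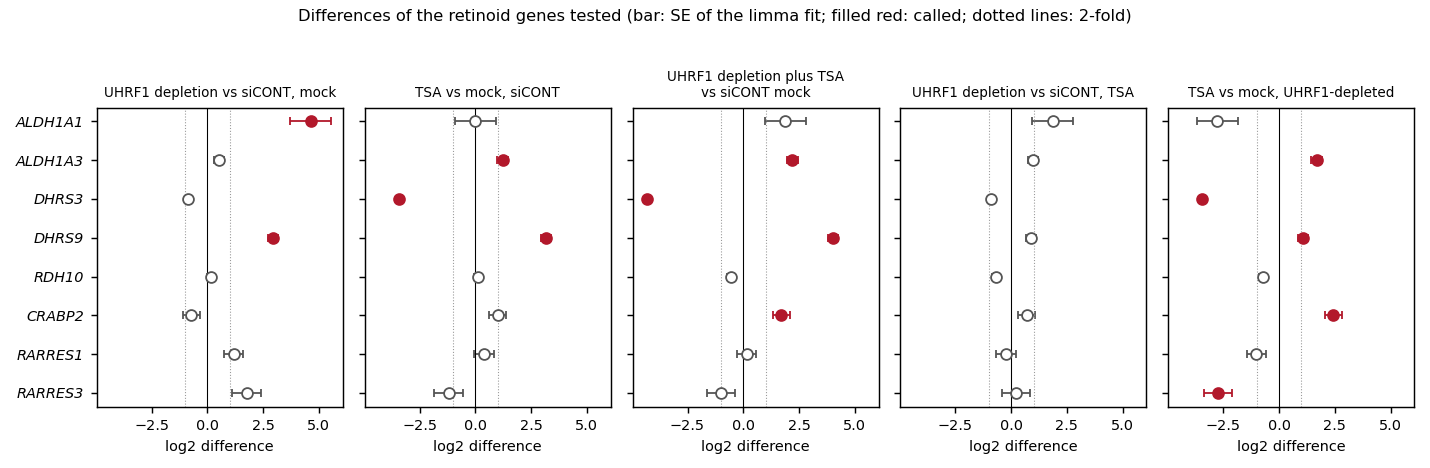
Log2 difference of the 8 tested retinoid genes in 5 comparisons, with the SE of the limma fit as bars, calls in filled red and dotted lines at 2-fold. ALDH1A1 (4.64) and DHRS9 (2.96) are called after UHRF1 depletion under mock. DHRS9, below background in siCONT mock, is drawn at its fitted difference. DHRS3 is called in the 3 comparisons of TSA-treated with mock-treated cells (−3.42, −4.32 and −3.44), and no gene is called for UHRF1 depletion under TSA.

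Of the binding proteins, CRABP2 was higher with TSA on each array, and most so in depleted cells. Its level (A_23_P115064, chromosome 1, 156669579 to 156669638, hg19, minus strand) was −1.15 and −1.37 in siCONT mock, −1.37 and −2.59 with siUHRF1-1 and siUHRF1-2 under mock, −0.29 and −0.22 in siCONT TSA, and 0.31 and 0.59 in UHRF1 depletion TSA. The mock groups overlapped, and the TSA groups lay above both. TSA in depleted cells gave 2.42 (SE 0.38), or 5.36-fold, which was called also in the merged-siCONT fit. Both treatments together gave 1.70, a call lost in that fit, without the second siCONT mock array (1.59) and without siUHRF1-2 under TSA (1.56). TSA alone gave 1.00 (SE 0.38), which was at the 2-fold limit and was not called, though it was when either depleted mock array was left out (1.00). UHRF1 depletion under mock gave −0.11 with siUHRF1-1 and −1.33 with siUHRF1-2, and without siUHRF1-1 the decrease was called. The interaction was 1.42 (SE 0.53) and was not called, except without siUHRF1-1 under mock (2.03). The other CRABP2 probe (A_33_P3294826) was above background on 1 siCONT TSA array and on no other, so it says nothing on the change.

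CRABP1, one of the CIMP marker genes that the study examined, stayed at the edge of detection. Its brighter probe (A_33_P3216869, chromosome 15, 78640361 to 78640420, hg19) had levels of −3.98 and −2.90 in siCONT mock, −3.98 and −4.09 in UHRF1 depletion mock, −3.44 and −3.15 in siCONT TSA, and −3.65 and −2.93 in UHRF1 depletion TSA. It was above background on 1 array each of siCONT mock, siCONT TSA and UHRF1 depletion TSA, and the other CRABP1 probe on none. At this signal the arrays could not show whether CRABP1 changed. The study reports demethylation of CRABP1 in DLD1 cells after UHRF1 depletion, by BeadChip. It also measured CIMP marker genes in these cells by qRT-PCR and reports restored expression with UHRF1 depletion plus TSA. The dim array probes cannot be set against those measurements.

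RARB was likewise not measurable in most samples. Its probe A_24_P3249 (chromosome 3, 25638622 to 25638681, hg19) had levels of −5.41 and −5.42 in siCONT mock, −5.11 and −5.36 in UHRF1 depletion mock, −5.61 and −4.35 in siCONT TSA, and −3.68 and −3.26 in UHRF1 depletion TSA. It was above background on 1 array, of UHRF1 depletion TSA, whose group held the highest levels. The other probe (A_33_P3305749, chromosome 3, 25636109 to 25636168) was above background on none, with levels of −5.61 to −5.44 on the mock arrays and −3.99 to −3.53 on the TSA arrays. These signals are bounds, and no difference is given for RARB.

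The response genes RARRES1 and RARRES3 were both highest after UHRF1 depletion without TSA. RARRES1, a membrane protein also known as TIG1, had levels (A_23_P18078, chromosome 3, 158422630 to 158422689, hg19, minus strand) of −2.66 and −2.44 in siCONT mock, −1.40 and −1.35 in UHRF1 depletion mock, −1.93 and −2.40 in siCONT TSA, and −3.09 and −1.70 with siUHRF1-1 and siUHRF1-2 under TSA. The depleted mock arrays lay above all others and close to each other, while the siRNAs under TSA spanned all the siCONT values. The difference for UHRF1 depletion under mock was 1.17 (SE 0.43), or 2.26-fold, and was not called in the fit of all 8 arrays, whose shared error for this probe includes the spread under TSA. It was called when either depleted TSA array was left out (1.17 both times). UHRF1 depletion under TSA gave −0.92 with siUHRF1-1 and 0.47 with siUHRF1-2, so the siRNAs, with 1 array each, went in opposite directions. TSA in depleted cells gave −1.02 and the interaction −1.40 (SE 0.61), neither called, and both were called without siUHRF1-2 under TSA (−1.72 and −2.10).

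RARRES3, a phospholipase and acyltransferase now named PLAAT4 that retinoids and interferon are known to induce, had levels (A_23_P1962, chromosome 11, 63313827 to 63313886, hg19, plus strand) of 1.66 and 1.61 in siCONT mock, 2.77 and 4.01 in UHRF1 depletion mock, 0.37 and 0.49 in siCONT TSA, and −0.27 and 1.56 in UHRF1 depletion TSA. It was higher on both depleted mock arrays than in siCONT mock, and the TSA arrays lay below both mock groups. TSA in depleted cells gave −2.75 (SE 0.64), or 6.72-fold lower, which was called. That call was lost in the merged-siCONT fit, without siUHRF1-2 under mock (−2.13) and without siUHRF1-1 under TSA (−1.83). UHRF1 depletion under mock gave 1.76, TSA alone −1.20 and the interaction −1.55, none called. Both treatments together gave −0.99, which was not called but was without siUHRF1-2 under TSA (−1.91). Under TSA the arrays of the siRNAs again went in opposite directions, at −0.70 with siUHRF1-1 and 1.13 with siUHRF1-2.

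**Figure D3:**
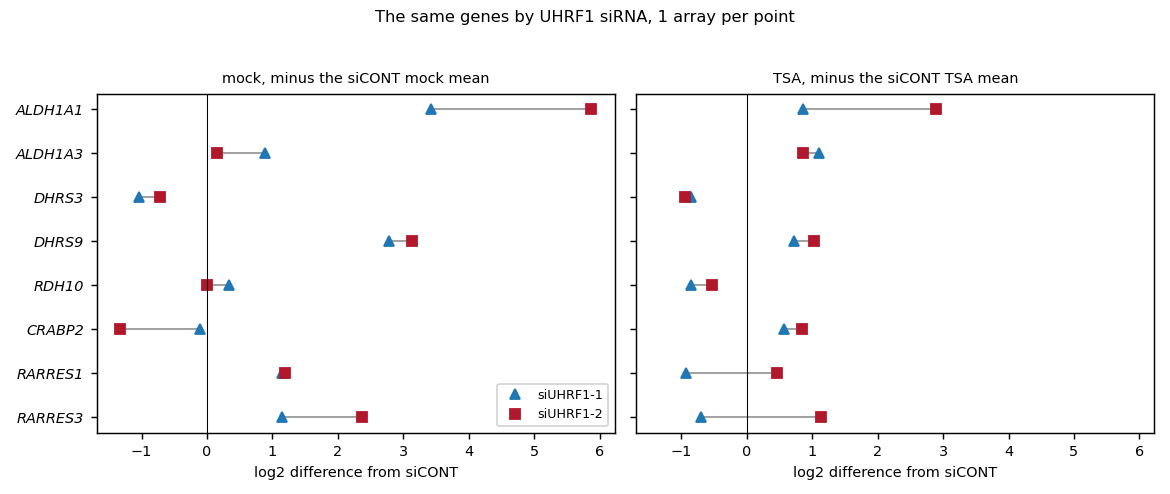
Log2 difference of each depleted array from the mean of the siCONT arrays given the same agent, for the 8 tested retinoid genes, with siUHRF1-1 as triangles and siUHRF1-2 as squares. The siRNAs lie farthest apart for ALDH1A1 (3.42 and 5.87 under mock), close together for RARRES1 under mock (SD 0.03), and on either side of 0 for RARRES1 and RARRES3 under TSA.

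The genes most like ALDH1A1 and DHRS3, the 2 members with the widest ranges of group means (4.64 and 4.32), were sought by the root mean square distance between levels centred over the 8 arrays. Among 24580 probes, HPDL (0.77), SLITRK6 (0.78) and APOBR (0.79) lay nearest to ALDH1A1. MYB (0.39), HIST1H2AL (0.44) and PIF1 (0.46) lay nearest to DHRS3. MYB, a transcription factor of progenitor cells, had mean levels of 4.45 in siCONT mock, 4.40 in UHRF1 depletion mock, 1.52 in siCONT TSA and 0.77 in UHRF1 depletion TSA. The distances are log2 units and a description over 8 arrays.

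The rest of the retinoid pathway was described with 70 further genes listed for their function, each by its brightest probe. This list was also drawn up with earlier results of these data known, so nothing is read from its shares. Most genes named from it below were picked by call and size of change. Their adjusted p, taken over all probes tested, describe single genes and are no test of the pathway. UHRF1 depletion under mock called 3 of 38 tested, all higher, beside 4.12% of all probes tested (702 higher and 221 lower). TSA alone called 4 higher and 9 lower of 41, beside 18.6% (2408 and 1911). Both treatments together called 11 higher and 6 lower of 44, beside 25.6% (3453 and 2625). UHRF1 depletion under TSA called 7 of 45, all higher, beside 8.27% (1286 and 685). TSA in depleted cells called 10 higher and 7 lower, beside 20.7% (2799 and 2154). In the merged-siCONT fit, limma called 0, 2, 12, 2 and 15, beside the counts over all probes given above, and in the 8-array fit 9, 23, 25, 19 and 24 genes had an unadjusted p under 0.05. After median scaling both treatments called 9 higher and 13 lower (2588 and 5614 of all probes), UHRF1 depletion under TSA 5 and 3 (873 and 2129) and TSA in depleted cells 7 and 10 (2034 and 4721), so the split of all probes turned as well. The medians of the tested pathway genes were −0.00, −0.12, −0.03, 0.14 and −0.14 in that order, beside the medians of all probes given above.

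Of the retinol and retinal oxidoreductases outside the members, 10 were tested for both treatments together. Of these, 3 were called lower and 1 higher, beside 25.6% of all probes tested. RDH11 fell by 1.47 (SE 0.24, limma adjusted p 0.00412), RDH13 by 1.48 (SE 0.22, adjusted p 0.00284) and DHRS4 by 1.28 (SE 0.26, adjusted p 0.00905). In the merged-siCONT fit these adjusted p were 0.0619, 0.0523 and 0.0946, and the DHRS4 call was also lost without the second siCONT mock array (−1.25) or siUHRF1-1 under TSA (−0.92). DHRS4 has near-identical neighbouring copies that its probes may also detect. RDH12, a reductase known from photoreceptors, went the other way. It was above background on the UHRF1 depletion TSA arrays alone (−1.94 and −1.63) and was at least 3.05-fold higher there than in siCONT mock (adjusted p 0.000679), at least 3.87-fold higher than in siCONT TSA (adjusted p 0.00498) and at least 3.51-fold higher than in UHRF1 depletion mock (adjusted p 0.000744). ALDH1A2 and ALDH8A1, the other retinaldehyde dehydrogenases, were above background on no array.

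Of 18 genes for carotenoid cleavage and retinoid uptake, binding and storage, 9 were tested for both treatments together. Of these, 3 were called higher and 1 lower, beside 25.6% of all probes tested. RBP7, a cellular retinol-binding protein, was at −5.21 and −5.03 in siCONT mock, below background, −2.76 and −2.90 in UHRF1 depletion mock, −4.29 and −4.17 in siCONT TSA, below background, and −1.09 and −1.56 in UHRF1 depletion TSA. It was thus detected wherever UHRF1 was depleted, and was at least 1.48-fold higher by depletion under mock (adjusted p 0.00609) and at least 5.32-fold higher under TSA (adjusted p 0.00129). The first of these had an adjusted p of 0.138 in the merged-siCONT fit. RBP4, the serum carrier of retinol, was at 3.30 and 3.40 in siCONT mock, 4.17 and 4.39 in UHRF1 depletion mock, 1.97 and 2.03 in siCONT TSA, and 0.73 and 1.48 in UHRF1 depletion TSA. It fell by 2.24 with both treatments (SE 0.25, adjusted p 0.00101) and by 3.17 with TSA in depleted cells (SE 0.25, adjusted p 0.000443). BCO2, which cleaves carotenoids, rose by 1.65 with both treatments (SE 0.19, adjusted p 0.00123). ISX, the intestinal repressor of carotenoid cleavage, fell by 2.20 with TSA in depleted cells (SE 0.43, adjusted p 0.00907).

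RBP5, a cellular retinol-binding protein, was detected with TSA alone, where it was at least 1.64-fold higher (adjusted p 0.0299), and with both treatments, at least 1.84-fold higher (adjusted p 0.019). The call for TSA alone was lost in the merged-siCONT fit (adjusted p 0.104), with quantile normalization and with no filter on dim probes. It was also lost without the first siCONT mock array (fitted difference 1.15) or either siCONT TSA array (2.20 and 1.57). The call for both treatments was lost with quantile normalization and without the first siCONT mock array (1.31) or siUHRF1-1 under TSA (1.72).

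Among catabolic enzymes and receptors, CYP26A1 and RXRA were both higher after UHRF1 depletion. CYP26A1 degrades retinoic acid and is a classical target of it. Its level was −2.50 and −2.39 in siCONT mock, −0.70 and −0.36 in UHRF1 depletion mock, −1.95 and −2.19 in siCONT TSA, and −0.63 and −0.91 in UHRF1 depletion TSA. The depleted arrays lay above all siCONT arrays, and the difference was 1.91 under mock (SE 0.18, adjusted p 0.00773) and 1.67 for both treatments together (SE 0.18, adjusted p 0.000911). The call under mock was lost without the first siCONT mock array (1.85). RXRA, the partner of the retinoic acid receptors, was at 1.70 and 1.72, 3.53 and 3.77, 2.57 and 2.56, and 3.14 and 2.77 in the same order of groups, a difference of 1.94 under mock (SE 0.16, adjusted p 0.00694). In the merged-siCONT fit the adjusted p under mock were 0.179 for CYP26A1 and 0.175 for RXRA. CYP26B1 and CYP26C1 were above background on no array. For both treatments together, 7 of 8 nuclear receptors and 6 of 7 receptor coregulators were tested. In each list 1 was called, higher, beside 25.6% of all probes tested, namely RXRA and PRAME (a corepressor of retinoic acid receptors).

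Of 16 genes known as responsive to retinoic acid, 11 were tested for both treatments. Of these, 4 were called higher (TGM2, MEIS1, MEIS2 and CEBPE) and 2 lower (BHLHE40 and BTG2), beside 25.6% of all probes tested. TGM2, tissue transglutaminase, was below background on all mock arrays (−5.60 to −5.26) and at −0.61 and −0.79 in siCONT TSA and 0.92 and 0.87 in UHRF1 depletion TSA. It was at least 6.47-fold higher with TSA alone (adjusted p 0.000117), at least 19.6-fold higher with both treatments (adjusted p 2.56e-05) and at least 22.6-fold higher with TSA in depleted cells (adjusted p 3e-05). The other TGM2 probe was above background on the UHRF1 depletion TSA arrays and on no others. MEIS1, a homeobox factor, was above background on the UHRF1 depletion TSA arrays and on no others. It was at least 1.80-fold above siCONT mock (adjusted p 0.00135) and at least 2.28-fold above siCONT TSA (adjusted p 0.00531). Against UHRF1 depletion mock it was at least 2.07-fold higher (adjusted p 0.00133). The call against siCONT TSA was lost in the merged-siCONT fit (adjusted p 0.0839). The other 2 MEIS1 probes were above background on no array. CEBPE, a myeloid transcription factor, was at least 1.38-fold higher with both treatments (adjusted p 0.0203), a call lost with quantile normalization, without the second siCONT mock array (fitted difference 1.05) and without either depleted TSA array (1.66 and 1.74).

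The response genes that fell included BHLHE40, a transcriptional repressor, with levels of 1.68 and 1.81 in siCONT mock, 1.08 and −0.71 in UHRF1 depletion mock, −1.28 and −1.14 in siCONT TSA, and −3.07 and −1.78 in UHRF1 depletion TSA. It fell by 4.17 with both treatments (SE 0.64, adjusted p 0.00319), by 2.61 with TSA in depleted cells (adjusted p 0.0208) and by 2.95 with TSA alone (adjusted p 0.0144). The latter call was lost in the merged-siCONT fit (adjusted p 0.198) and without any one of the 4 siCONT arrays (−3.02 to −2.89). The call in depleted cells was lost in that fit too (adjusted p 0.0608) and without siUHRF1-1 under mock (−1.72) or under TSA (−1.96). BTG2, an antiproliferative gene, fell by 2.57 with TSA (SE 0.13, adjusted p 0.000263) and by 2.20 with both (adjusted p 0.00015). RARRES2, which encodes chemerin, fell by 2.10 with TSA alone (SE 0.17, adjusted p 0.000714), a call lost in the merged-siCONT fit (adjusted p 0.065). GPRC5A, a retinoic acid inducible receptor, rose by 1.28 with TSA (SE 0.30, adjusted p 0.0193), a call lost in that fit (adjusted p 0.253). The GPRC5A call was also lost with no filter on dim probes and without any one of the 4 siCONT arrays (1.19 to 1.37).

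**Figure D4:**
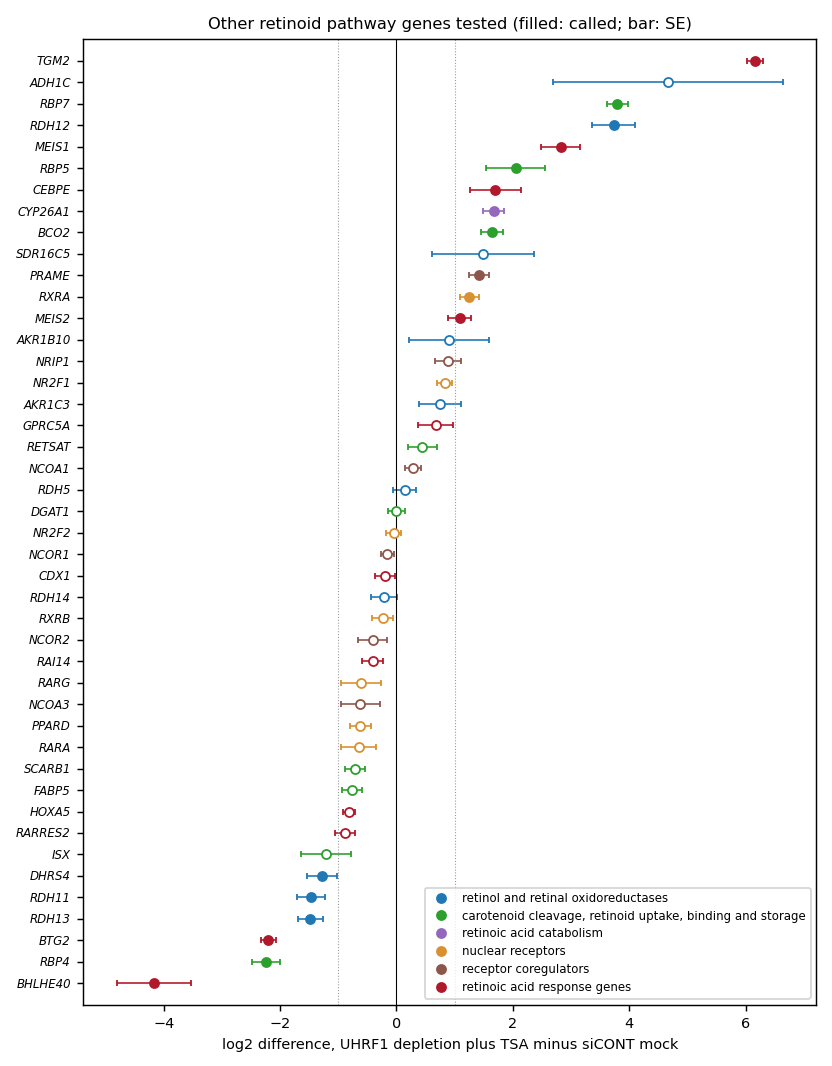
Log2 difference between UHRF1 depletion TSA and siCONT mock for the 44 other retinoid pathway genes tested, ordered by size, with the SE of the limma fit as bars, colours for the role of the gene and filled points for calls. TGM2 (6.16) lies at the top and BHLHE40 (−4.17) at the bottom. ADH1C (4.67) lies above RBP7 (3.79) but is not called (SE 1.98). TGM2 and RBP7 were below background in siCONT mock and are drawn at their fitted differences. Their bounds are at least 19.6-fold and at least 4.20-fold.

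Differences of probes below background in a group are given as bounds because the fitted difference of such a probe depends on the background correction. With normexp the fitted difference for both treatments was 0.73 for RBP7, 0.76 for RDH12, 0.51 for MEIS1, 0.15 for CEBPE and 0.32 for RBP5, and none of them was then called. For CYP26A1 and BCO2, above background on every array, it was 0.62 and 0.77, and these calls were lost too. The calls of RBP7, RDH12 and MEIS1 for UHRF1 depletion under TSA were likewise lost (0.81, 0.80 and 0.64), as were those of RDH12 and MEIS1 for TSA in depleted cells (0.87 and 0.61), that of RDH13 for both treatments (−0.96), that of RBP5 for TSA alone (0.23) and those of RBP7 and CYP26A1 for depletion under mock (0.15 and 0.75).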

How the data were processed

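RNA of 8 samples was hybridised to 1-colour arrays. The deposited files give linear spot intensity, which the authors extracted with Agilent Feature Extraction (version 10.7 per the labels) with background subtraction and no scaling between arrays. The table of the whole series holds the authors' intensity of the same spots and was used as an alternative. Probe positions are hg19, per the file headers. The study's methods name GeneSpring GX, and its normalization is not given in the sources used here.

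Spots flagged as outliers were dropped and the others of a probe averaged. No spot was saturated. The processed signal was divided by the array's 75th percentile and put on a log2 scale. These levels were fitted with limma 3.58.1 (lmFit and eBayes, R 4.3.3) as 4 group means over all 8 arrays, with 4 residual degrees of freedom, two-sided. The fit was tested on simulated data. The 8 arrays shared a slide and a scan. The number of arrays, 2 in each group, limits the precision. Neither the labels nor the methods say whether the siCONT arrays came from separate cultures, so p-values measure the spread between these arrays, which may be technical.

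The genes and lists were chosen with earlier results of these data known. All members are named. Of the other pathway genes, those called are named by size of change, up to 8 in each direction for both treatments together and up to 3 in each direction in each other comparison, and for the 2 members with the widest range of group means the 3 genes of nearest pattern. ADH1C, MEIS2 and PRAME were chosen after their values were seen. ALDH1A2, ALDH8A1, CYP26B1 and CYP26C1 are named for their role. Alternatives were other scalings (median, 75th percentile over detected probes, quantile), normexp with an offset of 50, other filters on dim probes, a merged-siCONT fit (each agent's siCONT arrays averaged into 1 sample, 2 residual degrees of freedom), a replicate block, leaving out each array, the series table, the methods' t-test and any probe of a gene. The promoters came from a RefSeq table that held no promoter of RDH10 or RARRES3.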

Additional observations from a re-analysis of the deposited data

Results flagged for a closer look

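For 1 of 8 members tested and 7 of 45 other pathway genes, the effect of UHRF1 depletion differed between TSA and mock. This was judged by the interaction term of the limma fit, which called 4.89% of all probes tested. For DHRS9 the interaction was −2.08, with each treatment alone bringing a gene below background to a similar level. Among the other pathway genes it was 3.77 for RDH12 (SE 0.52, adjusted p 0.0238), 3.43 for MEIS1 (SE 0.48, adjusted p 0.0244) and 1.79 for TGM2 (SE 0.20, adjusted p 0.0178), which were highest with both treatments, and −1.82 for RBP4 (SE 0.35, adjusted p 0.0423) and −1.55 for RXRA (SE 0.23, adjusted p 0.0259). PRAME, a corepressor of retinoic acid receptors that was named here because its interaction was called, had an interaction of 1.57, with levels of −1.04 and −1.17 in UHRF1 depletion TSA and −2.97 to −2.12 on the other arrays. BTG2 had an interaction of 1.05. In the merged-siCONT fit limma called 0 of all 24584 probes tested for the interaction, so the loss of these 8 calls there is not particular to them. With normexp the interaction was 0.91 for RDH12, 0.74 for MEIS1 and −0.06 for DHRS9, and these calls were lost, as were, with no filter on dim probes, those of DHRS9, RDH12, MEIS1, TGM2, RBP4 and RXRA. Without any one of the 4 siCONT arrays the calls of DHRS9 (−2.32 to −1.85), MEIS1 (3.38 to 3.48), TGM2 (1.69 to 1.88), RBP4 (−1.87 to −1.77) and RXRA (−1.56 to −1.54) were lost, that of RDH12 was lost without either siCONT mock array (3.73 and 3.81), and that of RBP4 also without either depleted mock array (−1.94 and −1.71). The interactions of DHRS9, RDH12 and MEIS1 rest on groups below background, as does that of TGM2 under mock.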

How the results depend on the processing

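No called difference of a member, a named pathway gene or UHRF1 changed sign under any alternative run, among 250 values for members and 679 for the others. Many of these values could not change sign. The filters on dim probes, the replicate block and the merged-siCONT fit keep the difference and alter its error or the probes tested. So does leaving out an array of a group not compared. Of the 250, 34 lost the call, as did 90 of the 679. Of 640 values of uncalled member differences 28 gained one and 17, in 6 results near 0, changed sign. The alternatives for the named pathway genes and UHRF1 were added after the data had been seen.

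The counts of members called follow. For UHRF1 depletion under mock (2) they were 1 with normexp, without a filter and with probes above background on all arrays, and 0 in the merged-siCONT fit and the adjusted methods' t-test, which called 5 and 0 of all probes. For TSA in siCONT (3) they were 1 with normexp and 5 with the methods' t-test, unadjusted or adjusted. For UHRF1 depletion under TSA (0) they were 2 with median scaling and 1 with the detected-probe percentile or quantile normalization. For TSA in depleted cells (5) median scaling gave 7, and the t-test 3, or 0 after adjustment, when it called 0 of all 23909 probes. The interaction (1) was 0 with normexp, without a filter, with probes above background on all arrays and in the merged-siCONT fit. Leaving out each array gave 1 to 3, 2 to 4, 3 to 4, 0 to 0, 4 to 6 and 0 to 2 in the order of the comparisons.

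Counts of other pathway genes for UHRF1 depletion under mock (3) were 1 with normexp, 0 in the merged-siCONT fit and with the adjusted t-test, and 5 with any probe. For TSA (13) they were 2 in the merged-siCONT fit. For both (17) they were 7 with normexp and 5 with the adjusted t-test. For UHRF1 depletion under TSA (7) they were 1 with normexp, 3 with probes above background on all arrays, 2 in the merged-siCONT fit and 0 with the adjusted t-test. For TSA in depleted cells (17) they were 6, 11 and 0 with normexp, that filter and the adjusted t-test. The interaction (7) gave 3 with normexp, 1 without a filter and 0 in the merged-siCONT fit. Leaving out each array gave 2 to 6, 6 to 16, 15 to 20, 5 to 12, 16 to 18 and 0 to 10. Fewer arrays or samples leave fewer degrees of freedom, and the cause of the other changes was not tested. The methods' t-test was not run for the interaction.

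Same-numbered arrays share an siRNA in the depleted groups (correlation of deviations 0.34) and only a number elsewhere (−0.06 to 0.07). With a replicate block the counts of members were 2, 3, 4, 0, 6 and 1, and of pathway genes 3, 16, 18, 7, 17 and 5. Median scaling moved the median of all probes tested to −0.54 for both treatments. Signal near background limits DHRS9, CRABP1, RARB and the bounds above.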
